A study of Mus musculus with 12 samples.

Results

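Chemokines and chemokine receptors were followed in white adipose tissue (WAT), muscle and liver of mice lacking the ghrelin receptor. Members were the genes with a probe set that carries a single gene symbol beginning with Ccl, Ccr, Cxcl, Cxcr and a digit, or with Cx3c. This gave 48 genes on 76 probe sets, of 18193 named genes on the array. They were picked by name, with earlier results of these data known. They comprise 32 ligands (18 Ccl, 13 Cxcl and 1 Cx3cl) and 16 receptors (10 Ccr, 5 Cxcr and 1 Cx3cr). RNA came from female Ghsr-/- mice (strain label C57bl/6) aged 12 weeks, killed 6 h after intraperitoneal saline or unacylated ghrelin (UAG) at 20 nmol/kg. UAG is ghrelin that lacks the acyl modification required to activate this receptor, so the question was which genes it altered in mice without that receptor. Gonadal WAT, M. vastus lateralis and liver each gave 2 saline and 2 UAG arrays, 12 Affymetrix whole-genome mouse arrays in 6 groups. All groups share the deletion, so no array shows these genes with the receptor intact. The labels do not tie arrays of different tissues to a mouse, and every p-value rests on the spread of these arrays alone, which may be technical.

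Chemokines bind G protein-coupled receptors on leukocytes and draw the cells along a gradient. They are grouped by the spacing of their first cysteines into CC, CXC and CX3C ligands, and most receptors bind several ligands of a single group. In adipose tissue Ccl2 and its receptor Ccr2 are known for monocyte entry, in liver Cxcl12 and Cxcl16 are made by cells lining the sinusoids, and Cxcl9, Cxcl10 and Cxcl11 are induced by interferon and bind Cxcr3.

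The deposited log2 values were returned to intensity, and values below 30, the threshold of the study's methods, were set to 30. A gene's level is that of its brightest probe set, and levels of different probe sets were not set against each other. The arrays had been brought to a common distribution, with a median log2 value of 5.32 on every array. Tissue markers followed the labels, although all muscle arrays also held the adipocyte marker Adipoq at 7674 to 11935, against 12280.4 to 14161 in WAT. The 4 brown adipocyte markers summed to 11135 to 18336 on the muscle arrays. The probe set of the deleted Ghsr lay between 3.80 and 26.2, below 30 on all 12 arrays, in tissues where no wild-type array is at hand. Some arrays stood apart in other cell types. The summed intensity of 5 smooth muscle markers was 29743 on the array WAT saline 2 and 5813 to 6638 on the other WAT arrays. On WAT saline 1, 4 brown adipocyte markers summed to 18807 against 1845 to 3822. On muscle saline 2, 5 mesothelial and epithelial markers summed to 1745 against 150.0 to 486, and on muscle UAG 2, 8 neutrophil markers summed to 7686 against 341 to 787. In whole tissue, fewer cells of a type and less RNA per cell cannot be told apart.

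Several members lie side by side in the genome. In the gene order of RefSeq, with only protein-coding genes counted, Ccl2, Ccl7, Ccl11, Ccl12, Ccl8 and Ccl1 form a run of 6 adjacent genes, Ccl5, Ccl9, Ccl6, Ccl3 and Ccl4 a run of 5, and Cxcl3, Cxcl15, Cxcl1 and Cxcl2 a run of 4. Ccr1, Ccr1l1, Ccr3 and Ccr2 form a run of 4 receptors. The promoters below are those of Ccl8, Cxcl10 and Cxcl15, which passed the 2-fold rule after UAG, and of Ccl12, the neighbour of Ccl8 that was high on the same arrays of WAT and muscle. Each is the 250 bases before the annotated start, 5′ to 3′, from RefSeq on build GRCm38.p6. Ccl8 lies at chr11:82114935-82115184 (+ strand), Ccl12 at chr11:82101595-82101844 (+), Cxcl10 at chr5:92348890-92349139 (−) and Cxcl15 at chr5:90794284-90794533 (+). Capitals mark 3 motifs searched on both strands: TATAAA, the kappaB form (GGGA, any 2 bases, then TTCC) and the interferon response form TTCNNTTTC.
Ccl8: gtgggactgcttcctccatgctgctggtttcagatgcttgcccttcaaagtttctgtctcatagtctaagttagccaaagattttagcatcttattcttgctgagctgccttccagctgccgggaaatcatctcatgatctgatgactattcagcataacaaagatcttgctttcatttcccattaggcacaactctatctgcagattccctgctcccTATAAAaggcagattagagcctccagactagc
Ccl12: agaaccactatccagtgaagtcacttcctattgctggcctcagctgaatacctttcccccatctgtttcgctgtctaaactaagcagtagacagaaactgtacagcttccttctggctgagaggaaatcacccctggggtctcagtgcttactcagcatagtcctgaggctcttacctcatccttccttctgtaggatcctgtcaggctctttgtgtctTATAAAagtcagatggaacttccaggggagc
Cxcl10: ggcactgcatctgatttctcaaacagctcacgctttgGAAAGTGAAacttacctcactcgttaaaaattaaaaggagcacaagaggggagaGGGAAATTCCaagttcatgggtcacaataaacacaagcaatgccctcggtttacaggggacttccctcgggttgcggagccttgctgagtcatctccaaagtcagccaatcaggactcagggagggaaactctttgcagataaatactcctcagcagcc
Cxcl15: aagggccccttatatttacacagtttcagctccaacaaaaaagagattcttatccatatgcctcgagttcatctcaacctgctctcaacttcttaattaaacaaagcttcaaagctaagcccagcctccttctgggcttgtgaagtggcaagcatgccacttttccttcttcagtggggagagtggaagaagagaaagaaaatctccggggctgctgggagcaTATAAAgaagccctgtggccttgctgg
The promoters of Ccl8, Ccl12 and Cxcl15 each hold TATAAA, which begins 32, 31 and 27 bases before the start. That of Cxcl10 holds GGGAAATTCC from 159 and GAAAGTGAA, the interferon form read on the other strand, from 213 bases before the start. Of the 48 members, 35 were in the promoter table, with 39 windows. The kappaB form was in the windows of 6 of these genes (Ccl1, Ccr3, Cxcl1, Cxcl10, Cxcl2 and Cxcl3) and in 1.21% of all 32851 windows. The interferon form was in those of 6 (Ccl1, Ccl3, Ccr2, Cxcl10, Cxcl14 and Cxcl9) and in 7.13% of all windows, and TATAAA in those of 11 and in 12.4%. TATAAA was added after the sequences had been seen. No kappaB site overlapped an interferon site in the promoters shown, and a match is a string of letters, not a measured binding site.

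On all 12 arrays 11 members were at or below 30, namely the ligands Ccl3, Ccl20, Ccl22, Cxcl2 and Cxcl3 and the receptors Ccr3, Ccr7, Ccr8, Ccr9, Cxcr2 and Cxcr5. Another 10 were above 30 on all 12: Ccl6, Ccl9, Ccl27a, Cxcl1, Cxcl9, Cxcl12, Cxcl13, Cxcl14, Cxcl16 and the receptor Ccr2. Within a tissue, 20 members were above 30 on all 4 WAT arrays, 17 on the muscle arrays and 17 on the liver arrays. Receptors made up 5 of the 20 in WAT, 2 of the 17 in muscle and 3 of the 17 in liver.

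**Figure D1:**
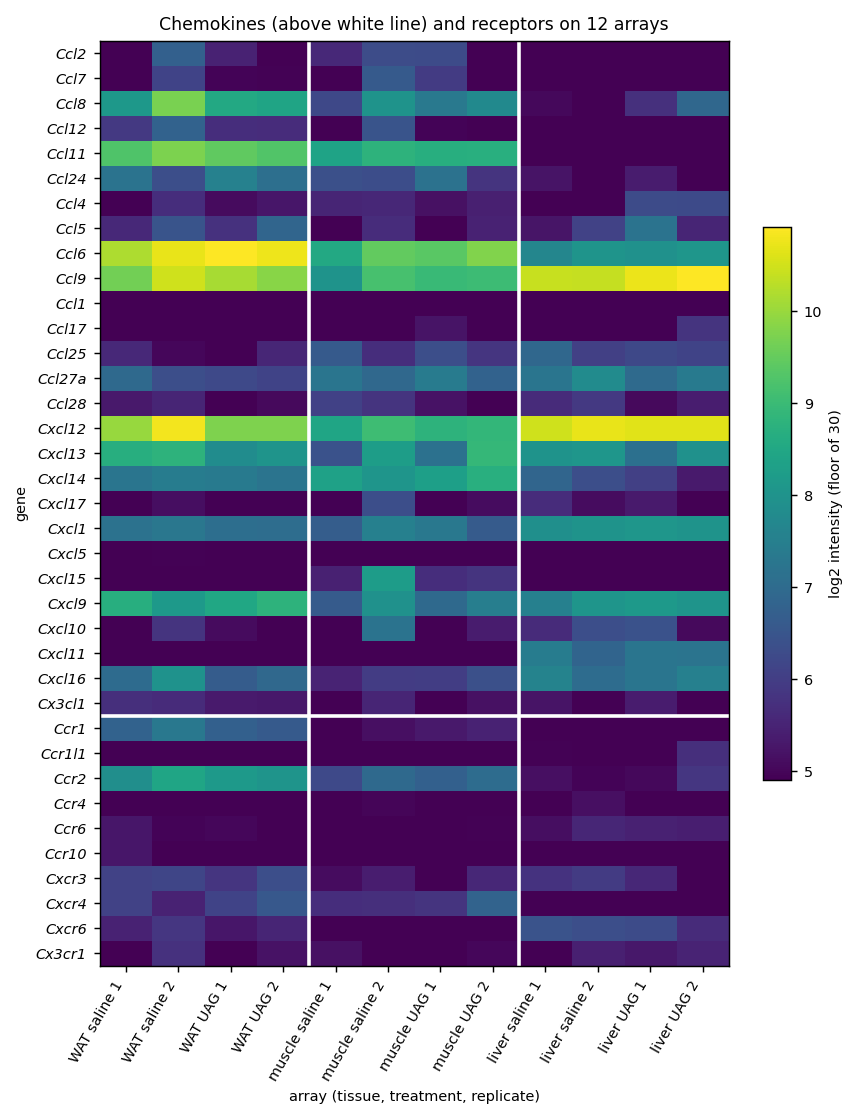
Log2 intensity of the 37 members above 30 on at least 1 array, with values below 30 set to 30; each row is a gene, each column an array, and white lines part the tissues and the ligands from the receptors. WAT saline 2 and muscle saline 2 are brighter in many rows than the other arrays of their tissue, and levels are to be read along a row, not between rows.

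Tissue differences were tested with limma in a single fit to the 12 arrays, averaged over saline and UAG, and called at an adjusted p under 0.05 with at least a 2-fold difference. Of 31 members tested, 17 were called in at least 1 of the 3 contrasts, against 47.8% of the 12594 genes tested. Of those called, Ccl11, Ccl12, Ccr1, Cxcl11, Cxcl15, Cxcr4 and Cxcr6 were below 30 on every array of at least 1 tissue. They passed the filter, a mean intensity of at least 30, through the other tissues. Arrays set to 30 add no spread, so the SEs and p-values of these members are not those of an ordinary test. Arrays of different tissues may come from the same mice and were taken as independent. Intensities of each tissue are given as mean ± SD over its 4 arrays.

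WAT and liver differed in 11 members (30.8% of all genes). WAT was higher for 9 of them, with 17.8% of all genes called in that direction, and liver for 2, with 13%. Ccl11 (eotaxin), a ligand of Ccr3 on eosinophils, was 617, 857, 695 and 629.9 on the WAT arrays and below 30 on all 4 liver arrays. WAT was thus at least 23.1-fold higher, a log2 difference of 4.53 (SE 0.14, adjusted p = 3.1e-10). The 4 liver arrays, all set to 30, add no spread to this SE. The other eosinophil ligand, Ccl24, was 138 ± 43.04 in WAT and 34.6 ± 5.49 in liver, a log2 difference of 1.95. The monocyte ligand Ccl8 was 458 ± 257 in WAT and 59.2 ± 42.4 in liver, 8.27-fold higher in WAT with a log2 difference of 3.05 (SE 0.43, adjusted p = 0.0001). Every WAT array lay above every liver array for these 3 genes, but those of Ccl8 spread from 277 to 839 within WAT. Its neighbour Ccl12 was 68.1 ± 28.5 in WAT and below 30 in liver, and this call was lost without WAT saline 2. Ccl6, a CC ligand of myeloid cells in rodents, was 1630.2 ± 323 in WAT and 245 ± 29.4 in liver, with a log2 difference of 2.72 (SE 0.20, adjusted p = 6.4e-07). Cxcl14, a ligand made by fat and epithelial cells among others, was 159.9 ± 10.3 in WAT and 76.3 ± 31.8 in liver, and this call was lost without liver UAG 2.

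Among receptors, Ccr2, which carries monocytes out of the bone marrow and into tissue, was 234, 347, 285 and 257 on the WAT arrays. On the liver arrays it was 35.6, 31.1, 33.03 and 57.9, so that WAT was 7.28-fold higher, a log2 difference of 2.86 (SE 0.23, adjusted p = 1.2e-06). The groups did not overlap, and 3 of the 4 liver arrays lay near the floor. On another Ccr2 probe set WAT and liver overlapped, at 23.9 to 68.9 and 14.3 to 59.1, and on the remaining ones they did not. Ccr1, a receptor of myeloid cells, was 111, 159, 107 and 97.5 on the WAT arrays and below 30 in liver, at least 3.88-fold higher in WAT. Cxcr4, the receptor of Cxcl12, was 69.5 ± 20.4 in WAT and below 30 on all liver arrays, a bound of 2.24-fold.

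The members higher in liver were Cxcl11 and Ccl25. Cxcl11, an interferon-induced ligand of Cxcr3, was 172, 116, 151 and 149 on the liver arrays and below 30 on all 8 arrays of WAT and muscle. Liver was at least 4.84-fold above WAT, with a log2 difference (WAT minus liver) of -2.28 (SE 0.15, adjusted p = 2.8e-07). The 8 arrays set to 30 add no spread to this SE. The second Cxcl11 probe set was below 30 on all 12 arrays. Ccl25, a ligand of Ccr9 on gut-homing T cells, was 82.2 ± 25.4 in liver and 39.5 ± 9.64 in WAT, a difference of -1.04 on the log2 scale whose call was lost without WAT saline 2, WAT UAG 1 or liver saline 1. Cxcr3 itself was 48.6 ± 13.7 in liver and 69.6 ± 10.01 in WAT and was not called.

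WAT and muscle differed in 10 members (21.6% of all genes). WAT was higher for 8 members (12.5% of all genes in that direction) and lower for 2 (9.08%). The largest difference was that of Ccr1, at 37.5 ± 6.31 in muscle, with a log2 difference of 1.65 (SE 0.16, adjusted p = 1.2e-05). Ccr2 was 75.6, 125, 108 and 130.4 on the muscle arrays, all below the WAT arrays, with a log2 difference of 1.37 (SE 0.23, adjusted p = 0.00053). Its other probe sets were not alike. One was 113 to 180 in WAT and 37.4 to 82.4 in muscle. The tissues overlapped on another, at 76.0 to 98.8 in WAT and 70.7 to 91.8 in muscle, and on the last, at 23.9 to 68.9 and 11.2 to 59.9. Ccl6 was 657 ± 212, Ccl8 177 ± 78.4 and Cxcl12, the ligand that holds haematopoietic cells in their niche, 449 ± 76.5 in muscle against 1141 ± 452 in WAT. The log2 differences of these 3 were 1.36, 1.37 and 1.29. Cxcl9, an interferon-induced ligand, was the sixth, at 374 ± 67.9 in WAT and 163 ± 65.5 in muscle. Ccl9 and Cxcl16 were also higher in WAT. The call of Cxcl16 was lost without WAT saline 2, that of Ccl8 without WAT saline 2, WAT UAG 1, muscle saline 1 or muscle UAG 1, and those of Ccl9 and Cxcl9 without muscle saline 1.

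Cxcl14 and Cxcl15 were higher in muscle. Cxcl14 was 327, 265, 317 and 413 on the muscle arrays, above every array of WAT and liver. The adipocyte and brown adipocyte markers on the muscle arrays are given above, and their part in this difference was not tested. The log2 difference of WAT minus muscle was -1.03 (SE 0.19, adjusted p = 0.00097), just past the 2-fold threshold, and its call was lost without WAT saline 1, WAT UAG 2, muscle saline 1 or muscle UAG 2. The second Cxcl14 probe set, not used for the call, was 284, 212, 208 and 227 on the muscle arrays. On the WAT arrays it was 41.3, 67.6, 61.8 and 52.8. Cxcl15, known as lungkine and best described in lung epithelium, was 44.00, 302, 51.4 and 56.2 on the muscle arrays and below 30 on the other 8. Muscle saline 2 was the one array above 100, and without it the calls of Cxcl15 against WAT and liver were lost. The call against WAT was also lost without WAT UAG 1, WAT UAG 2, muscle UAG 1 or muscle UAG 2, and that against liver without muscle UAG 2 or any liver array.

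The macrophage markers differed between the tissues beside these genes. The sum of 8 macrophage markers was 9637 to 10427 on the WAT arrays, 2561 to 4609 on the muscle arrays and 4789.8 to 5282 on the liver arrays. The part of cell number in the tissue differences was not tested.

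Liver differed from muscle in 13 members (34.4% of all genes), 5 higher in liver (15.9% of all genes) and 8 higher in muscle (18.5%). Besides Cxcl11, liver was higher for Cxcl12, Ccl9, Cxcl16 and Cxcr6. Cxcl12 was 1423, 1687, 1599 and 1610.4 on the liver arrays, with a log2 difference of 1.83 (SE 0.18, adjusted p = 5.3e-06). Ccl9, a CC ligand of myeloid cells and osteoclast precursors in mice, was 1594 ± 283 in liver and 466 ± 144 in muscle. Cxcl16, a membrane-bound ligand, and its receptor Cxcr6, which keeps NKT and other T cells in the liver, were both on this side. Cxcl16 was 165 ± 29.1 against 63.6 ± 15.5, a log2 difference of 1.39 (SE 0.23, adjusted p = 0.00035). Cxcr6 was 87.6, 81.8, 77.8 and 50.4 on the liver arrays and below 30 on all muscle arrays, at least 2.43-fold higher. Muscle was higher for Ccl11, at least 13.3-fold, for Cxcl14, 4.59-fold, and for Ccl8, Ccr2, Ccl6 and Ccl24, 2.50- to 3.20-fold. Cxcl15 and Cxcr4, both below 30 on all liver arrays, were at least 2.62- and 2.15-fold higher in muscle. The call of Cxcr4 was lost without muscle UAG 2 and that of Ccl24 without muscle UAG 1.

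Not called in any contrast were 14 members, namely Ccl2, Ccl4, Ccl5, Ccl7, Ccl27a, Ccl28, Cx3cl1, Cxcl1, Cxcl10, Cxcl13 and Cxcl17 and the receptors Ccr6, Cx3cr1 and Cxcr3. Cxcl13 was 335 ± 107 in WAT, 253 ± 177 in muscle and 228 ± 59.4 in liver, with the widest spread in muscle. Cxcl1, a neutrophil ligand, was 239.7, 255, 267 and 256 on the liver arrays, 144, 157, 135 and 134 on the WAT arrays and 102, 184, 158 and 99.7 on the muscle arrays. Its other probe sets, not used for the call, also had every liver array above every WAT and muscle array. The dimmer in WAT was 118 to 269 in liver, 26.7 to 34.7 in WAT and below 30 on all muscle arrays. The brighter in WAT was 140 to 291 in liver, 70.6 to 81.5 in WAT and 59.2 to 117 in muscle.

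Ccl9, Ccl6 and Cxcl9 were above 30 on all 12 arrays. Ccl9 was 796, 1422, 1132 and 923 on the WAT arrays, in the order saline 1, saline 2, UAG 1 and UAG 2 used throughout. On the muscle arrays it was 255, 576, 509 and 523 and on the liver arrays 1372, 1352, 1714 and 1938. The lowest liver array was below the highest WAT array, and every muscle array was below both tissues. Ccl6 was 1168, 1694, 1920.3 and 1738 on the WAT arrays, 369, 711, 670.3 and 876 on the muscle arrays and 202, 260.0, 249 and 267 on the liver arrays, with no overlap between tissues. Cxcl9 was 409.9, 286, 359 and 442 on the WAT arrays and 184, 265, 282 and 258 on the liver arrays.

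**Figure D2:**
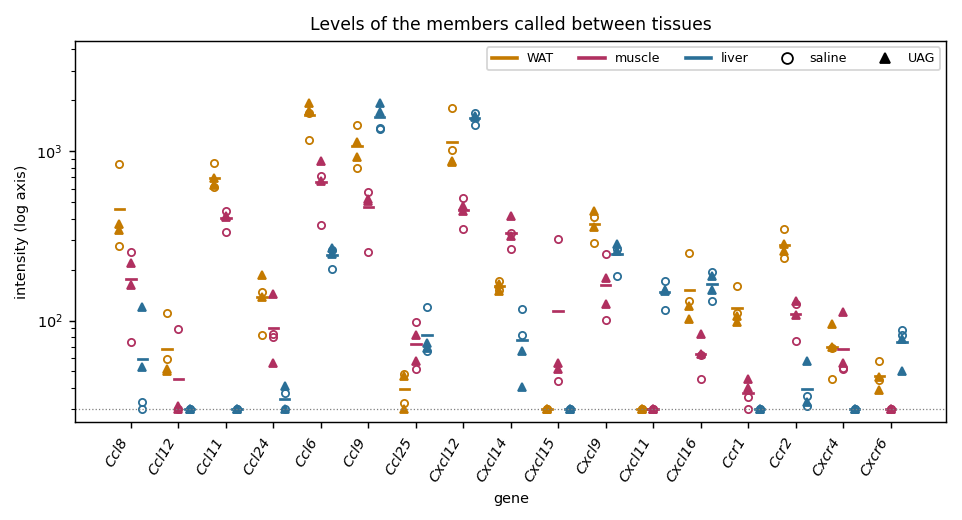
Intensity on a log axis of the 17 members called between tissues, with a point per array (open circles saline, triangles UAG), a bar at the mean of the 4 arrays of a tissue and a dotted line at the floor of 30. Ccl11, Ccr1 and Cxcr4 sit on the floor in liver, Cxcl11 on the floor in WAT and muscle, and Cxcl15 is above 100 on muscle saline 2 alone.

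UAG was compared with saline within each tissue by the study's rule, under which UAG over saline (each a plain mean of 2 intensities) must reach 2 or fall to 0.5 or less, which has no p-value, and by limma on log2 values. In WAT no member passed the 2-fold rule, where 0.335% of all genes were higher and 1.29% lower. In muscle 2 members passed, both lower with UAG (0.242% of all genes, and 0.176% higher), and in liver 2, both higher (0.214%, and 0.181% lower). limma called 0 members in each tissue, with 28 members tested for WAT, 27 for muscle and 24 for liver, and 0% of all genes. At an unadjusted p under 0.05 there were 1, 1 and 4 members, against 7.12, 1.85 and 3.38% of all genes tested. Of the liver ones, Ccl4 and Ccl8 passed the intensity filter, a mean of at least 30, through their UAG arrays.

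The liver members were Ccl4 and Ccl8. Ccl4 (MIP-1β), a ligand released by activated macrophages, NK cells and T cells, was 21.7 and 29.2 on the saline arrays and 77.9 and 76.9 on the UAG arrays. Both saline arrays were below the floor, and both UAG arrays stood together well above it. With the floor the means were 30 with saline and 77.4 ± 0.755 (SD, n = 2) with UAG, so UAG was at least 2.58-fold higher, with a log2 difference of 1.37 (SE 0.31, 95% interval 0.66 to 2.08, adjusted p = 1.00) by limma. With a single UAG array the ratio was 2.56 or 2.60, and leaving out a saline array cannot move it, since both were set to 30. Ccl4 and Ccl8 passed the intensity filter through their UAG arrays, so their intervals and p-values are not those of an ordinary test. With a floor of 100 neither Ccl4 nor Ccl8 passed the 2-fold rule. Ccl8 (MCP-2), which draws monocytes and T cells, was 32.9 and 16.02 on the saline arrays and 53.2 and 121 on the UAG arrays. Here the UAG arrays differed more than 2-fold between themselves, and the first saline array was just above the floor and the second below it. With that second saline array set to 30, which can only lower the ratio, it was 2.77, the log2 difference 1.35 (SE 0.42, 95% interval 0.38 to 2.32, adjusted p = 1.00), and without liver UAG 2 the ratio was 1.69. Without liver saline 2, Ccl5 and Cxcl14 also passed the rule, and without liver UAG 1, Cxcl14 did. Of all genes, 1.88 and 1.22% then passed it in either direction, against 0.396% with all arrays. In liver the T cell marker Cd8a was 30 and 39.2 on the saline arrays and 57.4 and 84.7 on the UAG arrays and Cd3e 57.4 and 30 on the saline arrays and 75.7 and 95.5 on the UAG arrays. Of 7 T cell markers measured, 4 were tested in liver, of which 3 had a positive difference, Cd8a passed the 2-fold rule and 0 were called by limma, and Cd3d and Cd4 were at the floor on every liver array. The T cell sum was 234 to 269 with saline and 322 to 330.4 with UAG. Its part in the Ccl4 difference was not tested. The 8 macrophage markers summed to 4789.8 to 5282 over the liver arrays, and the 5 Kupffer cell markers to 3691 to 3915.

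The muscle members were Cxcl10 and Cxcl15, and both rest on a single array. Cxcl10 (IP-10), which draws Cxcr3-bearing T cells, was 3.68 and 148 on the saline arrays and 22.8 and 41.04 on the UAG arrays. Muscle saline 2 was far above the other 3 arrays, of which muscle saline 1 was the lowest, and the UAG arrays lay between the saline arrays. The ratio was 0.400 and the log2 difference -0.92 (SE 0.62, 95% interval -2.34 to 0.49, adjusted p = 1.00). With no floor the log2 difference was above 0, at 0.39. Cxcl15 was 44.00 and 302 on the saline arrays and 51.4 and 56.2 on the UAG arrays, and here too saline 2 was alone. Its ratio was 0.311 and its log2 difference -1.10 (SE 0.72, 95% interval -2.72 to 0.52, adjusted p = 1.00). Without muscle saline 2 both ratios were above 1, at 1.18 for Cxcl10 and 1.22 for Cxcl15. Without muscle saline 1, Ccl7, Ccl12 and Cxcl17 also passed the rule, and without muscle UAG 1, Ccl2, Ccl7, Ccl28, Cxcl13 and Cxcr4 did. Of all genes, 1.17 and 0.803% then passed it in either direction, against 0.418% with all arrays. The second probe set of Cxcl15 was 8.93 and 95.5 on the saline arrays and 33.1 and 10.7 on the UAG arrays, with the same array highest. On that array the epithelial keratins Krt19 and Krt8 were 1015 and 602, and both were at the floor on muscle saline 1. On the UAG arrays, between the saline arrays, Krt19 was 179 and 206. Of the 5 mesothelial and epithelial markers, Msln and Upk3b were at the floor on all muscle arrays, and the part of epithelial cells in these values was not tested. Cxcl17, a chemokine of mucosal epithelium, was 25.4 and 82.2 on the saline arrays and 29.02 and 34.7 on the UAG arrays, again with saline 2 highest.

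**Figure D3:**
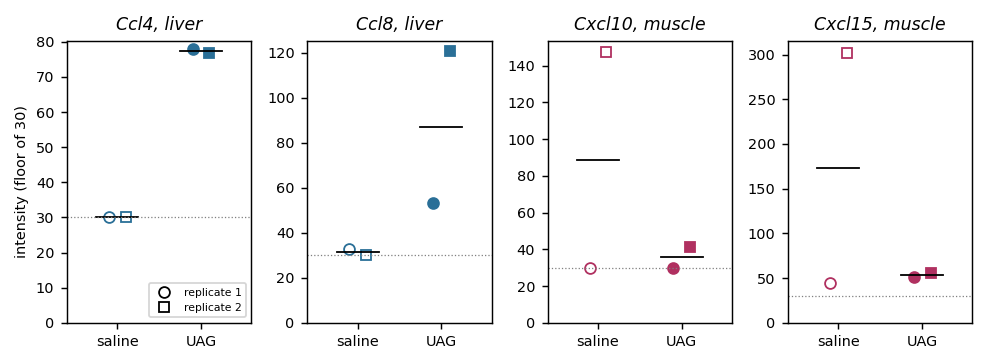
Intensity, floored at 30 (dotted line), of the 4 members past the 2-fold rule, with circles for replicate 1, squares for replicate 2 and a bar at the mean of each group of 2. In liver both UAG arrays lie above both saline arrays for Ccl4 and Ccl8; in muscle the saline mean of Cxcl10 and Cxcl15 is carried by replicate 2.

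In WAT the member with the smallest p was Cxcl13, a ligand of Cxcr5 that gathers B cells. Its brightest probe set was 412 and 442 on the saline arrays and 227 and 261 on the UAG arrays. Both UAG arrays lay below both saline arrays, and replicates were close. The ratio was 0.572, short of the 2-fold rule, and the log2 difference was -0.81 (SE 0.16, 95% interval -1.20 to -0.41, adjusted p = 0.566). The second probe set had a log2 difference of -0.86, with groups that did not overlap either. In liver the brightest probe set was also lower on both UAG arrays, at 255 and 268 on the saline arrays and 139.6 and 249 on the UAG arrays, but one UAG array was close to the saline arrays. In muscle the UAG arrays were 142 and 479.7, apart from each other and on both sides of muscle saline 2. B cell markers in WAT went the other way, with 4 of 4 higher with UAG on average and none called, and sums of 128 to 185.

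The other WAT members with small p-values were Cxcl12, Ccl28 and Cxcl16, all with saline and UAG arrays that did not overlap. Cxcl12 was 1016 and 1811 on the saline arrays and 871 and 868 on the UAG arrays, with a log2 difference of -0.64 (SE 0.28, 95% interval -1.34 to 0.05, adjusted p = 0.751). Its UAG arrays were alike and the saline arrays were not. A second Cxcl12 probe set went the other way, at 683 and 1046 on the saline arrays and 1030.4 and 903 on the UAG arrays, with a log2 difference of 0.19. Cxcl16 was 129.8 and 252 on the saline arrays and 101 and 122 on the UAG arrays, with a log2 difference of -0.70 (SE 0.34, 95% interval -1.55 to 0.15, adjusted p = 0.758) and the same high saline 2 array.

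Ccl28, a mucosal ligand of Ccr10 and Ccr3, was lower on both UAG arrays than on both saline arrays in each of the 3 tissues. The probe set was 39.7 and 45.9 on the saline arrays and 26.00 and 33.5 on the UAG arrays in WAT. In muscle it was 66.7 and 56.4 on the saline arrays and 36.5 and 28.2 on the UAG arrays. In liver it was 50.2 and 59.9 on the saline arrays and 33.4 and 42.2 on the UAG arrays. All values were dim, near the floor or a little above it. The ratios were 0.742, 0.540 and 0.687, and the log2 difference in muscle was -0.89 (SE 0.29, 95% interval -1.55 to -0.23, adjusted p = 1.00). Its other 2 probe sets were below 30 on nearly every array. Ccl28 was singled out after its values were seen, and in each tissue 6.62 to 9.73% of all genes had lower, non-overlapping UAG arrays.

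Ccl9 and Cxcl14 completed the liver members with an unadjusted p under 0.05. Ccl9 was 1372 and 1352 on the saline arrays and 1714 and 1938 on the UAG arrays, with a log2 difference of 0.42 (SE 0.11, 95% interval 0.16 to 0.68, adjusted p = 1.00). Both UAG arrays were above both saline arrays on its second probe set too, at 797 and 862 on the saline arrays and 1210.0 and 1393 on the UAG arrays, where the log2 difference was 0.65 (SE 0.12, 95% interval 0.38 to 0.92, adjusted p = 0.541). Cxcl14 was 117 and 81.7 on the saline arrays and 66.3 and 40.5 on the UAG arrays, lower on both UAG arrays, with a log2 difference of -0.91 (SE 0.36, 95% interval -1.74 to -0.09, adjusted p = 1.00). The lower saline array was close to the higher UAG array, and its second probe set was below the floor in liver.

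In muscle the members with the smallest p after Ccl28 were Ccl6, Cxcr4 and Ccl12. Ccl6 was 369 and 711 on the saline arrays and 670.3 and 876 on the UAG arrays, with saline 1 alone and low, and a log2 difference of 0.58 (SE 0.30, 95% interval -0.10 to 1.26, adjusted p = 1.00). All 8 macrophage markers had a positive difference in muscle (median log2 0.42, none called by limma or past the 2-fold rule), with sums of 2561 and 3351 with saline and 3484 and 4609 with UAG, also lowest on saline 1, and their part in the Ccl6 value was not tested. Cxcr4 was 51.8 and 52.5 on the saline arrays and 56.1 and 113 on the UAG arrays, and UAG 2, the array on which neutrophil markers were high, was the highest. Neutrophils are known to carry Cxcr4, and on that array S100a9 was 2629.6 and Mpo 319.9, against 55.8 and 34.05 on UAG 1. All 8 neutrophil markers had a positive difference in muscle, 6 passed the 2-fold rule and 0 were called by limma, and their part in the Cxcr4 value was not tested. Ccl12 was 22.8 and 89.1 on the saline arrays and 31.5 and 15.4 on the UAG arrays, high on saline 2 alone.

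Saline and UAG arrays that did not overlap were counted over all members. In WAT they were 2 higher and 9 lower with UAG, where 16.1 and 9.49% of all genes did so. In muscle they were 3 higher and 2 lower (8.09 and 6.62%), and in liver 4 higher and 5 lower (10.4 and 9.73%). The WAT members with a difference below 0 were 23 of 28, with a median log2 difference of -0.22 against 0.03 for all genes tested. In muscle 14 of 27 were below 0, and in liver 9 of 24. Of all genes tested 45.6% were below 0 in WAT, 47.7% in muscle and 48.4% in liver.

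**Figure D4:**
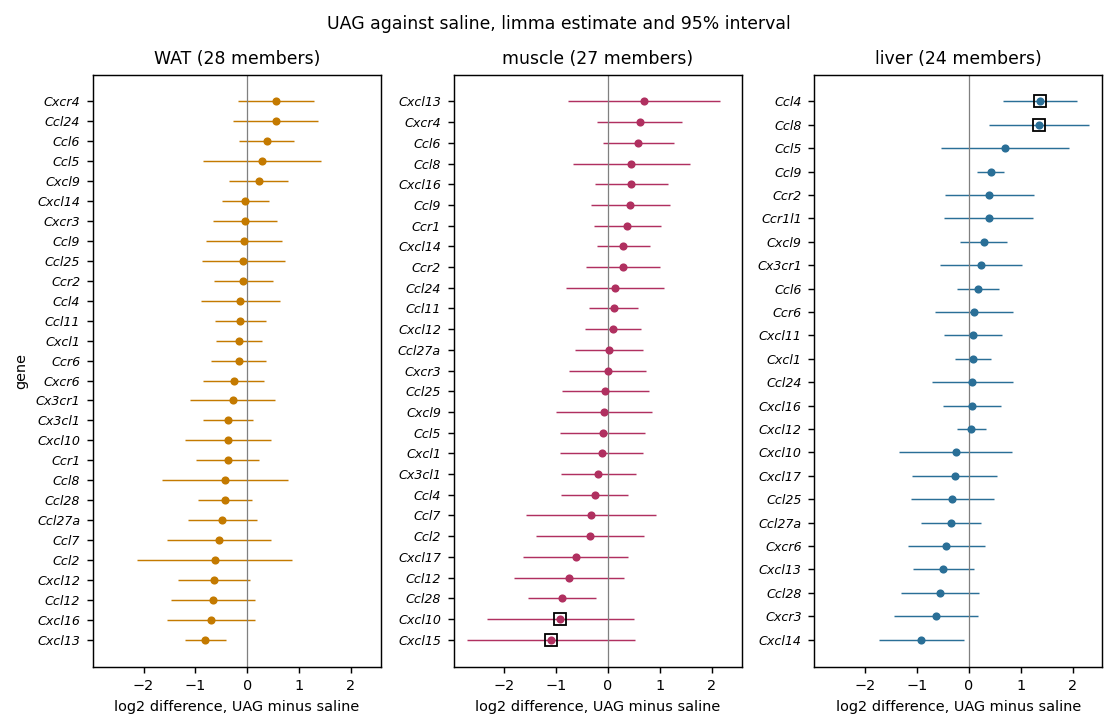
Log2 difference of UAG minus saline by limma with its 95% interval for every member tested in a tissue, with squares around the members past the 2-fold rule. In WAT 23 of 28 points lie left of 0, in muscle the wide intervals at the bottom are Cxcl10 and Cxcl15, and in liver Ccl4 and Ccl8 are at the top.

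The shift in WAT rests on the array WAT saline 2. It held the highest value for 18 of the 28 members, 64.3%, and for 26.5% of all genes tested. Without it, 13 members were above 0 and 13 below, with a median of -0.02. The monocyte ligands were among the genes that stood out. Ccl2 (MCP-1) was 27.3 and 108 on the saline arrays and 44.9 and 21.7 on the UAG arrays, Ccl7 (MCP-3) 29.4 and 69.1 on the saline arrays and 31.2 and 30.96 on the UAG arrays and Ccl8 277 and 839 on the saline arrays and 374 and 343 on the UAG arrays. In each of them saline 2 was more than 2-fold above the next array, and saline 1 lay between the UAG arrays for Ccl2 and below both for Ccl7 and Ccl8. Ccl12 was 59.6 and 111 on the saline arrays and 51.9 and 50.6 on the UAG arrays, with the same array highest. Without WAT saline 1, Ccl2, Ccl7, Ccl8, Ccl12, Cxcl12 and Cxcl16 passed the 2-fold rule as lower with UAG, and without WAT saline 2 no member did. Of all genes, 2.45 and 1.93% then passed it in either direction, against 1.63% with all arrays. On WAT saline 2 the neutrophil markers S100a8 and S100a9 were 357 and 233 and the smooth muscle marker Acta2 11931, against 2892 to 3373 on the other WAT arrays. The 8 neutrophil markers summed to 889 there and to 279 to 310.1 elsewhere, with Ngp and Camp at the floor on all WAT arrays. Of 5 smooth muscle markers 4 passed the 2-fold rule as lower with UAG, and of the 8 neutrophil markers 3. The macrophage sum was 9768, within the range of the other WAT arrays, 9637 to 10427. The part of these other cells in the chemokine values was not tested.

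Muscle saline 2 had the same place among the muscle arrays. It was highest for 15 of 27 members, 55.6%, against 28.1% of all genes, while muscle saline 1 was lowest for 12, 44.4%, against 27.5%. Of the 6 neighbours from Ccl2 to Ccl1, 5 were above 30 on some array in both WAT and muscle, and all 5 were highest on saline 2 in each of these tissues, although in muscle Ccl2 was 1.00-fold, Ccl11 1.06-fold and Ccl8 1.16-fold the next array. Ccl7 in muscle was 23.7 and 96.96 on the saline arrays and 61.7 and 14.4 on the UAG arrays and Ccl8 74.2 and 254 on the saline arrays and 161 and 219 on the UAG arrays. UAG 1 was between the saline arrays for both, and UAG 2 was the lowest for Ccl7. Muscle saline 1 was also the muscle array with the lowest macrophage sum. Without muscle saline 2, 18 of 22 members were above 0. Ccl6, Ccl8, Ccl9 and Cxcl13 then passed the 2-fold rule as higher with UAG and Ccl28 as lower. Of all genes, 1.21% passed it in either direction without that array, against 0.418% with all arrays. In liver no array stood out, with 6 of 24 members highest on each.

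**Figure D5:**
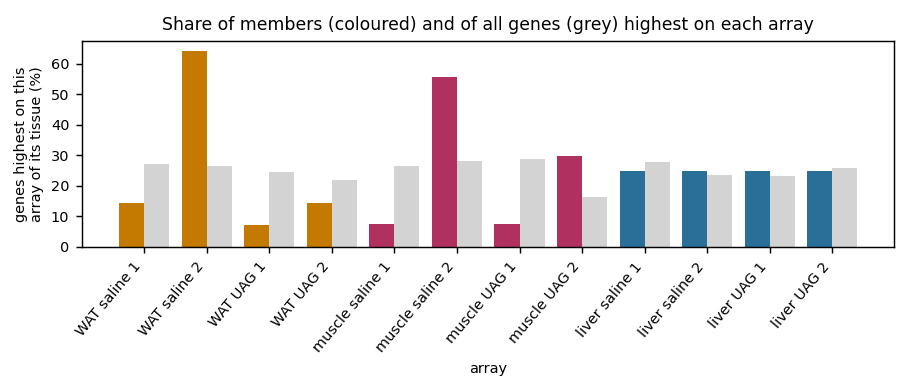
Percent of the members tested in a tissue (coloured bars) and of all genes tested (grey bars) that had their highest value on each array. WAT saline 2 (64.3%) and muscle saline 2 (55.6%) exceed the share of all genes, and the 4 liver arrays hold 25% of the members each.

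Whether UAG acted on a member differently in 2 tissues was tested as an interaction in the fit to all 12 arrays. limma called 0 of 31 members in each of the 3 pairs, and 0, 0.00794 and 0% of all genes for WAT against liver, WAT against muscle and liver against muscle. At an unadjusted p under 0.05 there were 2 members in each pair, and the share of all genes at that threshold was not computed. For Ccl4 the UAG effect in WAT minus that in liver was -1.50 (SE 0.36, adjusted p = 0.709) on the log2 scale, and that in liver minus that in muscle 1.63 (SE 0.36, adjusted p = 1.00). In muscle both UAG arrays of Ccl4 were below both saline arrays, at 46.2 and 47.9 on the saline arrays and 35.98 and 43.02 on the UAG arrays, the reverse of the order in liver. By the brightest probe set, such opposite, non-overlapping orders were also seen for Cxcl1, lower with UAG in WAT and higher in liver, and for Ccr1 and Cxcl16, lower in WAT and higher in muscle. Their interactions were -0.24 (SE 0.39, adjusted p = 1.00) for Cxcl1 in WAT minus liver, -0.75 (SE 0.32, adjusted p = 1.00) for Ccr1 and -1.15 (SE 0.47, adjusted p = 1.00) for Cxcl16 in WAT minus muscle. These members were picked after their order had been seen. For Cxcl1 the closest liver arrays were saline 2 at 254.9 and UAG 2 at 255.9. On the other Cxcl1 probe sets saline and UAG arrays overlapped in liver, and on the second Cxcl16 probe set they overlapped in WAT. Of the 48 members 1 had opposite orders in WAT and liver, 2 in WAT and muscle and 1 in liver and muscle, where 3.17, 2.07 and 1.68% of all genes did so. Without WAT saline 1 the difference between WAT and liver was called for Ccl4 alone, with a log2 difference of -1.89 and an adjusted p of 0.0447.

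Genes that act with the chemokines were read from lists of partners. Of 14 genes for chemokines of other names, atypical receptors and chemoattractants, limma tested 12 for WAT, 12 for muscle and 10 for liver and called 0 in each. In muscle 11 of the 12 were above 0, with a median log2 difference of 0.24 against 0.01 for all genes tested. The list summed to 3673 and 5087 on the muscle saline arrays and 5085 and 4863 on the UAG arrays, with saline 1 alone and low. Ppbp, a platelet chemokine, passed the 2-fold rule in muscle, listed at the floor on 3 arrays and at 259 on UAG 2. Of the same list Rarres2 (chemerin) was 1189 and 1349 on the saline arrays and 2293 and 1777 on the UAG arrays in WAT. Its receptor Cmklr1 was 561 and 553 on the saline arrays and 925 and 907 on the UAG arrays. Both were higher on both UAG arrays, as were 16.1% of all genes in WAT, and were picked after their values were seen. In WAT 0 genes of this list passed the 2-fold rule. Ackr3, an atypical receptor that removes Cxcl12, was 829.9 and 851 on the saline arrays and 839 and 701 on the UAG arrays in WAT and at the floor on all liver arrays. Of 12 genes of receptor signalling limma called 0 of 12 in each tissue. Of 18 genes of cytokine and NF-kappaB signalling, among them targets and inhibitors, it called 0 of 12 tested for WAT, 0 of 12 for muscle and 0 of 14 for liver. Ifng, Il6 and Sele were at the floor on all 12 arrays. Il1b in WAT was 40.5 and 59.9 on the saline arrays and 36.8 and 40.97 on the UAG arrays, and in muscle Nfkbia, a target and inhibitor of NF-kappaB, was 1451 and 2814 on the saline arrays and 2459 and 2871 on the UAG arrays, with saline 1 the lowest. None of the genes of these last lists passed the 2-fold rule in any tissue.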

How the data were processed

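The deposited table holds log2 intensities that the authors had normalized. MAS5 is named in the submitters' processing notes, and quantile normalization and a threshold of 30 in the methods of the study. The log base is not given in the sources used here, and 2 was taken because it puts the highest value at 25724, under the 16-bit scanner limit of 65535, which base e exceeds. Of 45037 probe sets, 34945 have 1 gene symbol in the platform annotation, 932 several and 9160 none, and 64 control probe sets were left out. A single probe set of the member names with several symbols was not used. The members, and all lists, were chosen with earlier results of these data known. Genes named with values were those past the 2-fold rule, the 6 of highest mean intensity per tissue, the 6 most different per tissue contrast and direction, receptors with a mean of at least 100, the 4 smallest p per tissue, and list members past a rule or first in their list. Ccl2, Ccl7, Cxcl17, Cxcr3, Rarres2, Cmklr1, Ackr3, Il1b and Nfkbia fall outside this rule and were chosen after their values were seen.

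Values below 30 were set to 30. limma 3.58.1 in R 4.3.3 (lmFit, eBayes with an intensity trend) was fitted to the 4 arrays of a tissue, or to all 12 with a mean per group, over probe sets of mean intensity of at least 30 (25307, 25105 and 25160 in WAT, muscle and liver, and 26530 for all), with Benjamini-Hochberg adjustment over those. Percentages of all genes take the brightest probe set of each gene. Scripts were tested on simulated data. Alternatives were floors of 100 or none, other filters and normalizations, geometric means, other probe set rules, a single fit, no trend, the saline arrays alone, a replicate block, and each array left out. Detection calls were not analysed here. The number of arrays limits the precision.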

Additional observations from a re-analysis of the deposited data

How the results depend on the processing

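The counts of members past the 2-fold rule moved most. With no floor they were 5 in WAT, 6 in muscle and 4 in liver, with a floor of 100 they were 1 in muscle and 0 in liver, and with geometric means 1 in muscle. For WAT the count was 0 to 6 with an array left out, for muscle 2 to 7, and for liver 2 to 4. Of the tissue contrasts, a floor of 100 left 4 members for WAT against liver, 6 for WAT against muscle and 5 for liver against muscle, since dim members then sit on the floor, and the 6 saline arrays alone left 7 for WAT against liver and 5 for WAT against muscle. Leaving out an array gave 6 to 12 for WAT against muscle, the lowest without muscle saline 1. Among these alternatives the share of all genes was computed only for the 2-fold rule with an array left out. The other counts here have no such share to be set against. The interaction of WAT and liver was called for 0 members with no floor, no filter, quantile normalization or a replicate block. For Ccl4 it was -1.50 on the log2 scale with all arrays and -1.89 without WAT saline 1, which leaves a single WAT saline array. In muscle 3 log2 differences changed sign. With an array left out Cxcl10 was -2.07 to 0.23, Cxcl15 -2.49 to 0.29 and Ccl12 -1.54 to 0.034, each highest without muscle saline 2 and lowest without muscle saline 1, and with no floor Cxcl10 was 0.39, where its dimmest array counts in full. Under quantile normalization over all arrays and scaling to the 75th percentile no count moved by more than 1.5 times and none of the named log2 differences changed sign.

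limma called 0 members for UAG in each tissue under every alternative run, namely no floor, quantile or 75th percentile scaling, no filter, a filter at 100, a single fit to 12 arrays, no trend and each array left out. The replicate numbers do not pair the arrays by the labels. Deviations of equally numbered arrays from their group means correlated at -0.176 in WAT, 0.177 in muscle and -0.0298 in liver. With a replicate block limma called 0 members in each tissue, and the tissue contrasts gave 11, 10 and 13 members as before. A block with crossed numbers in WAT, added after the data had been seen, also called 0. With 2 arrays a group the ratios of dim members depend on the floor.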
